A study of Mus musculus with 2 samples.

Results

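Haemoglobinizing erythroblasts are the nucleated red cell precursors of bone marrow that are filling with globin. They were picked out here by their transcripts, as 1014 of the 31569 cell barcodes of 2 single-cell libraries of mouse bone marrow. Of these, 775 came from the control library and 239 from the MYC library, and each group was 1 library. The control genotype was Mx1Cre+/-;Rosa26+/+ and the other was Mx1Cre+/-;Rosa26LSL-MYC/LSL-MYC, so both groups carried the same Cre. Mx1Cre is a Cre recombinase under an interferon-responsive promoter, which acts in blood stem cells and in many other cells; LSL-MYC is a MYC transgene held silent by a stop cassette until Cre cuts it out. The study compared marrow blood cells with and without MYC overexpression in stem cells. The age of the mice, how Cre was induced and the number of animals behind each library are not given in the sources used here. A difference between the libraries therefore cannot be told apart from a difference between 2 animals or 2 preparations, and no test was possible.

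A barcode was a member when it held at least 1000 unique molecular identifiers (UMIs, each standing for 1 captured RNA molecule), with under 10% of them mitochondrial. The 4 adult globins Hba-a1, Hba-a2, Hbb-bs and Hbb-bt had to give at least 2% of its UMIs. The earlier markers Hemgn, Rhd, Cpox and Mgst3 had to give at least 3 UMIs and not fewer than the later markers Bpgm, Tmcc2, Xpo7 and Tent5c. The neutrophil transcripts S100a8 and S100a9 had to stay under 5%. The levels of these genes are therefore a description and support nothing. Just inside the globin limit, at 2 to 3%, stood 40 control and 19 MYC members, and just outside it, at 1 to 2%, 69 and 34 barcodes that met all the other limits. The S100 limit alone kept out 107 control and 11 MYC barcodes.

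Red cell precursors divide a few times while they switch on globin, heme synthesis and the membrane skeleton, and then condense and lose the nucleus. Erythropoietin (EPO), acting through its receptor and the kinase JAK2, keeps them alive, and iron enters through the transferrin receptor. Heme and globin must be made in step, and the kinase HRI (Eif2ak1) slows translation through eIF2α when they are not, which switches on the transcription factor ATF4 and its targets. MYC normally declines as these cells mature.

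The label fitted the transcripts outside the rule. Slc4a1 (the band 3 anion exchanger) stood at 2691 CPM (UMIs of the gene scaled to a library total of 1000000) in control and 1748 CPM in MYC members, and Klf1, a master factor of red cells, at 457 and 319 CPM. The 13 erythroid markers that the rule did not use together made up 14139 CPM of control and 11038 CPM of MYC members, against 466.3 and 249.4 CPM of the passing barcodes outside the red cell stages. In the neighbouring stages, defined below, they made up 4852 and 3303 CPM (earlier cells) and 15324 and 8705 CPM (later erythroblasts). They therefore mark the red cell lineage more than this stage. Kit, a marker of younger progenitors, was near 0, with 53 and 8 UMIs.

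The transgene checks the labels. The feature named MYC had 0 UMIs in passing control barcodes and, in the MYC library, 3 in members, 3 in earlier cells, 1 in later erythroblasts and 305 in all other passing barcodes, so transgene RNA was present in the library labelled MYC alone and was barely detectable in these cells. The mouse gene Myc had 58 and 20 UMIs in members, or 5.17 and 6.13 CPM. What sequence the MYC feature stands for is not given in the sources used here.

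Control members gave 11225041 UMIs and MYC members 3265206. The median member held 12369 and 12933 UMIs, 2314 and 2193 genes, and 2.42% and 1.77% mitochondrial UMIs. Neutrophil transcripts can be abundant among the free RNA of marrow preparations. The S100a8 and S100a9 share of the median member was 0.198% (control) and 0.301% (MYC), and 46 and 45 members lay at 1% or more. The 14 neutrophil markers other than S100a8 and S100a9 summed to 1919 and 2027 CPM in members, and the 7 monocyte markers to 209 and 368 CPM, with 5 of the 7 called higher by the threshold given below, beside 13% of all genes. The 10 B and plasma cell markers summed to 784 and 1375 CPM, but 4 of the 5 with enough UMIs were called lower, and 1 barcode in each library carried 66.4% and 92.4% of the UMIs of Ighm, the immunoglobulin heavy chain. Without those 2 barcodes, a choice made after seeing the data, the direction of the sum turned, to 316 and 114 CPM, and Ighm stood at 185 and 97.2 CPM. The 11 macrophage markers other than Slc40a1, which erythroblasts also express, were higher in MYC members, at 18.1 and 47.8 CPM (interval of the log2 ratio 1.09 to 1.71); Cd5l was at 0 in control and Cd163 at 0 in MYC members. The 7 basophil and mast cell markers summed to 64.0 and 93.7 CPM. Their direction differed by globin share, with 196 and 18.9 CPM at 2 to 5% globin and 14.6 and 231 CPM at 5 to 15%. The part of all these transcripts in the results below was not tested, except where the values without such members are given. The libraries shared 97 barcode sequences, and no barcode was a member in both. Xist stood at 877 and 760 CPM in members, and the Y-linked genes Ddx3y, Eif2s3y, Kdm5d and Uty at 0 in both.

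Erythroblasts of this kind were scarcer in the MYC library. They made up 5.85% of 13251 passing control barcodes (95% Clopper-Pearson interval 5.46 to 6.26) and 2.27% of 10543 passing MYC barcodes (1.99 to 2.57). The difference was -3.58 percentage points (Newcombe interval -4.08 to -3.09), or a ratio of 0.388. These intervals, like all others here, cover counting error only. A share falls when other cells are more numerous too, so fewer erythroblasts and more of other cells cannot be told apart.

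The neighbouring stages were scarcer too. Later erythroblasts, with the same globin and S100 limits but more late than early marker UMIs, were 308 and 109 barcodes, a ratio of shares of 0.445 (0.354 to 0.555). Earlier cells, with the early markers and Klf1 but under 2% globin, were 276 and 100 barcodes, a ratio of 0.455 (0.359 to 0.574). Among the 3 stages together, members made up 57.0% (control) and 53.3% (MYC), and the interval of that difference, -9.11 to 1.73 points, included 0.

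Globin itself was spread differently among the members. The median member had 13% globin UMIs (control) or 14.7% (MYC), but the upper quartile was 20.4% and 27.5%. Only 36 control members (4.65%) reached 30% globin, against 48 MYC members (20.1%). The 2 to 5% end held 142 control and 47 MYC members. The MYC members at that end were shallow, with a median of 5175 UMIs against 21899 in the control, and richer in S100a8 and S100a9, with 1.16% against 0.155%, so this bin is the least comparable between the libraries.

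**Figure D1:**
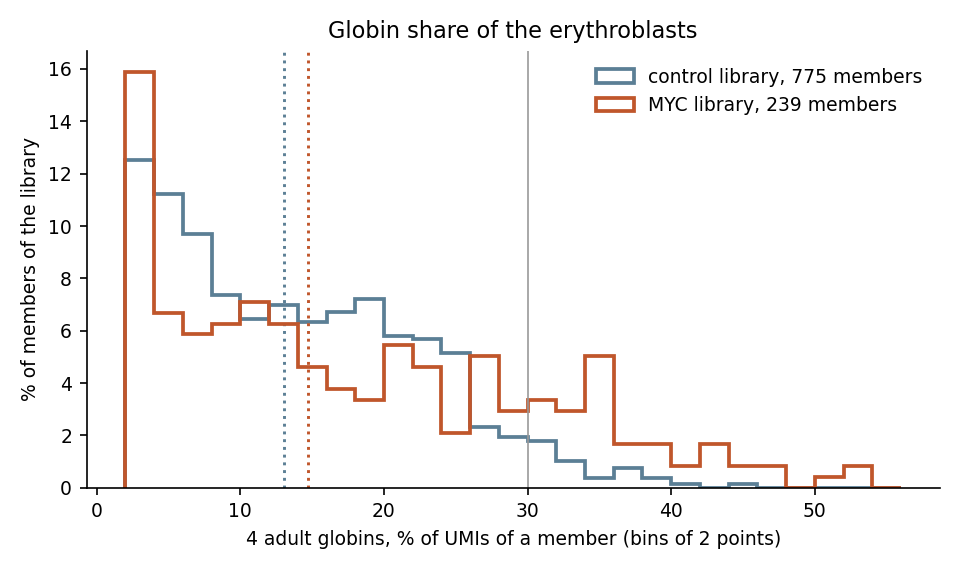
Percent of each library's members (vertical) by the percent of a member's UMIs from the 4 adult globins (horizontal, bins of 2 points). Dotted lines mark the medians, 13% (control) and 14.7% (MYC), and the grey line marks 30%, above which lie 4.65% of control and 20.1% of MYC members.

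The mix of globin chains held more of the adult beta chain Hbb-bs in the MYC library. It made up 47.2% of the 4 globins in control and 52.1% in MYC members, while the alpha chain gene Hba-a2 made up 11.7% and 8.89%. Alpha chains together gave 34.7% and 31.7% of globin UMIs. In the median member the alpha share was 35.4% in control members (quartiles 32.4 and 38.7) and 32.1% in MYC members (29.1 and 35.8), so the ranges of cells overlapped widely. Hba-a1 and Hba-a2 are near-identical copies, as are Hbb-bs and Hbb-bt, and how reads were split between them is uncertain. The embryonic beta-like globin Hbb-bh1 had 69 UMIs in control and 0 in MYC members, at least 6.69-fold lower against a floor of 3 UMIs in the MYC library. But 49 of the 69 came from 1 barcode.

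Each gene was then compared over the summed UMIs of the members of each library. A gene was called when its CPM ratio was at least 1.5 in either direction and the 95% counting interval of the ratio excluded 1, among the 6686 genes with at least 100 UMIs. Of these, 871 were called higher in the MYC library, 13%, and 1432 were called lower, 21.4%. The median gene had a log2 ratio of -0.16. That split moved with the scaling. With median-of-ratios scaling, as in DESeq2, 1262 were higher and 853 lower and the median was at -0.00075, and with the 20 most abundant genes left out of the total 559 were higher and 2107 lower with a median of -0.33. It was 1035 and 1140 with globin left out of the total, 1118 and 1196 when a mean over cells gave every cell the same weight, and 1211 and 1161 with the 4 globin bins weighted alike. List values below are best read against the median of all genes.

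Genes of the integrated stress response were higher, the programme that ATF4 runs when eIF2α is phosphorylated. Of 22 listed genes of this response and of endoplasmic reticulum chaperones, 19 had enough UMIs; 12 were called higher in MYC members and 1 lower, against backgrounds of 13% and 21.4%. Their median log2 ratio was 1.16 (0.48 to 1.33 over the alternatives). The genes were spread widely around it, with 6 of the 19 below 0, and their summed level had a log2 ratio of 0.63.

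Trib3 (chr2:152337422-152344032, minus strand, GRCm38), a pseudokinase induced by ATF4 and CHOP, had the largest ratio of the called genes in this list. It had 12 UMIs (1.07 CPM) in the 775 control members and 490 UMIs (150 CPM) in the 239 MYC members, a log2 ratio of 7.13 (95% interval 6.32 to 8.10). It was seen in 1.29% of control and 66.1% of MYC members. The richest MYC member held 2.45% of the UMIs, so the signal was spread over cells.

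Nupr1 (chr7:126623249-126630861, minus strand), a stress-induced chromatin protein, followed, with 14 UMIs (1.25 CPM) and 266 UMIs (81.5 CPM), a log2 ratio of 6.03 (5.26 to 6.92). Atf5, a transcription factor of the ATF4 family, stood at 8.46 CPM in control and 123 CPM in MYC members, a log2 ratio of 3.86. Ddit3, which encodes CHOP, stood at 45.9 and 288 CPM, a log2 ratio of 2.65, and unlike the others it was already present in 43.4% of control members. For none of the 4 did the counting intervals of the libraries overlap.

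Few members of the MYC library lacked all of these transcripts. Of MYC members, 71 of 239 (29.7%) had all of Trib3, Nupr1, Atf5 and Ddit3, and 18 (7.53%) had none; of control members, 0 had all 4 and 409 of 775 (52.8%) had none. After each member was thinned to 2000 UMIs, leaving out 19 control and 18 MYC members that were shallower, Trib3 was seen in 0.265% of control and 29.4% of MYC members. In passing barcodes with at least 5% S100a8 and S100a9 and under 2% globin, which are neutrophil-rich, Trib3 was seen in 0.471% (control, median 5699 UMIs) and 2.52% (MYC, median 6733.5 UMIs). Nupr1 was seen in 1.43% and 4.18% of those, against 1.29% and 42.7% of members, which are deeper; after thinning to 2000 UMIs it was seen in 0.265% and 12.7% of members.

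Promoters of this response often carry the composite site bound by ATF4 with a C/EBP protein, whose core is TGATGNAA. In RefSeq's 300-base windows around gene starts (250 bases before and 50 after, GRCm38.p6), this core on either strand was found in 3.97% of 32851 windows, and in at least 1 window of 1219 of 27025 genes (4.51%). All listed stress genes but Ppp1r15b had a window. Of the 12 called stress genes, 4 had it (Trib3, Nupr1, Asns and Herpud1), as did Chac1 and Slc7a11 of the 3 genes with too few UMIs. Atf5, Ddit3, Atf4, Sesn2, Phgdh, Psat1, Mthfd2 and Slc3a2 had no match in these windows. A match is a description of letters, not a measured site. The sequences show where the core lies in the called genes that hold it and in Chac1; each is 30 bases in the direction of the gene, with the match in capitals.

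Trib3 (chr2:152344028-152344057, minus strand): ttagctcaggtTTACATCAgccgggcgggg
Nupr1 (chr7:126625562-126625591, minus strand): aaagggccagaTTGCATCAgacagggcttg
Asns (chr6:7693214-7693243, minus strand): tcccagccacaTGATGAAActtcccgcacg
Herpud1 (chr8:94386306-94386335, plus strand): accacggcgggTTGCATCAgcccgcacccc
Chac1 (chr2:119351038-119351067, plus strand): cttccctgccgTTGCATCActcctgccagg

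Except in Asns the core reads on the strand opposite to the gene. Counted from the RefSeq start, its first base lay at position -110 in Nupr1, -23 in Asns, -112 in Herpud1 and -193 in Chac1. In Trib3 it began at base 15 from the RefSeq start, and the end of the match nearest the gene lay 7 bases before the start of the gene in GENCODE vM21. In GENCODE the Nupr1 and Asns matches overlap exons of longer transcripts.

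Other genes of the list act in amino acid metabolism. Asns, asparagine synthetase, stood at 86.6 CPM in control and 244 CPM in MYC members (log2 ratio 1.5). Phgdh and Psat1, enzymes of serine synthesis, stood at 9.80 and 34.3 CPM (1.81) and at 6.15 and 18.7 CPM (1.60). Mthfd2, a mitochondrial folate enzyme, stood at 68.3 and 181 CPM (1.41), and the amino acid carrier subunit Slc3a2 at 112 and 206 CPM (0.87). Atf4 itself was 230 and 451 CPM (0.97). Sesn2, which restrains mTORC1, had a log2 ratio of 1.55. Chac1, a glutathione-degrading enzyme, had 3 and 34 UMIs, too few for a call, with a log2 ratio of 5.28 (3.62 to 7.63).

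The endoplasmic reticulum chaperones in the same list did not go along. Hspa5 (BiP) was the gene called lower, with 263 CPM in control and 160 CPM in MYC members (log2 ratio -0.72), a call that was lost under 2 of the alternatives, with median-of-ratios scaling (-0.55) and when every cell had the same weight (-0.24). Calr, Pdia6 and Xbp1 were not called, at log2 ratios of -0.40, -0.12 and 0.10. Xbp1 ranged from -0.27 to 0.67 over the alternatives, with a call in 1 of them. In each library 1 barcode held much of the Xbp1 RNA, with 27.6% (control) and 21.2% (MYC) of its UMIs. Herpud1, a factor of protein degradation at the reticulum, was called higher, at 18.7 and 43.2 CPM, with 26 of its 141 MYC UMIs in 1 barcode. Eif2ak1, the heme-sensing kinase, stood at 221 and 161 CPM, a log2 ratio of -0.46 that reached the call only with the 20 most abundant genes left out of the total (-0.62) and with the globin bins weighted alike (-0.67), and Ppp1r15a, which reverses eIF2α phosphorylation, at 322 and 307 CPM.

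**Figure D2:**
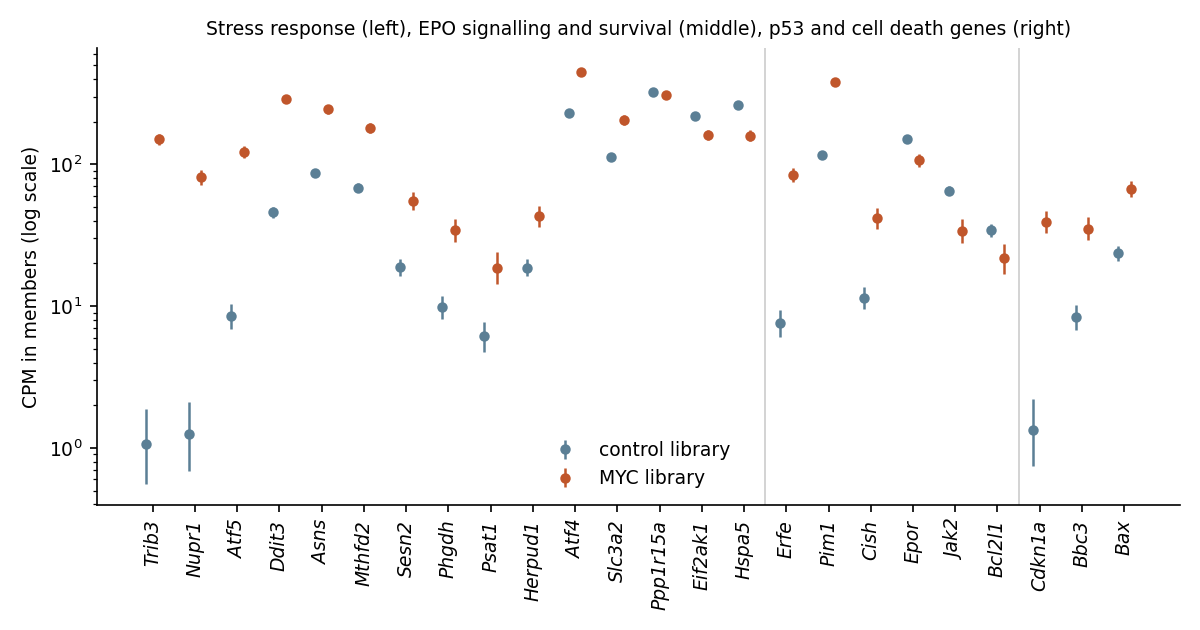
CPM in members on a log axis, with 95% Poisson intervals, for stress response genes (left), EPO signalling and survival genes (middle) and p53 or cell death genes (right) in the control and MYC library. Trib3 and Nupr1 lie near 1 CPM in control members and at 150 and 81.5 CPM in MYC members.

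In the MYC library the 4 stress transcripts were most abundant in the members richest in globin. In MYC members Trib3 was 29.1 CPM at 2 to 5% globin, 88.7 CPM at 5 to 15%, 235 CPM at 15 to 30% and 314 CPM at 30% or more, while in control members it stayed between 0.319 and 2.83 CPM. Ddit3 followed the same order, with 64.0, 210, 441 and 517 CPM in MYC members and 42.0, 48.1, 50.4 and 8.48 CPM in control members. In the lowest bin the Ddit3 ratio was small, a log2 ratio of 0.61 (0.08 to 1.12), and in the highest it was 5.93 (4.37 to 8.22).

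Atf5 and Nupr1 were also higher in each bin of MYC members than in the one before, ending at 285 and 176 CPM, and in the control at 2.83 and 0 CPM. Asns did not follow: in MYC members it was 194, 273, 279 and 188 CPM, while in control members it was lower in each bin than in the one before, from 115 to 5.65 CPM. At least 2 of the 4 stress transcripts were seen in 10 of 47 MYC members of the lowest bin and in 48 of 48 of the highest. In the control that was 15 of 142 and 1 of 36. These counts were not thinned to equal depth. The median depth in the lowest and highest bin was 5175 and 11036 UMIs in MYC members. In control members it was 21899 and 10743 UMIs. The highest control bin holds few cells, so its levels rest on 1 to 3 UMIs for Trib3, Atf5 and Ddit3.

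**Figure D3:**
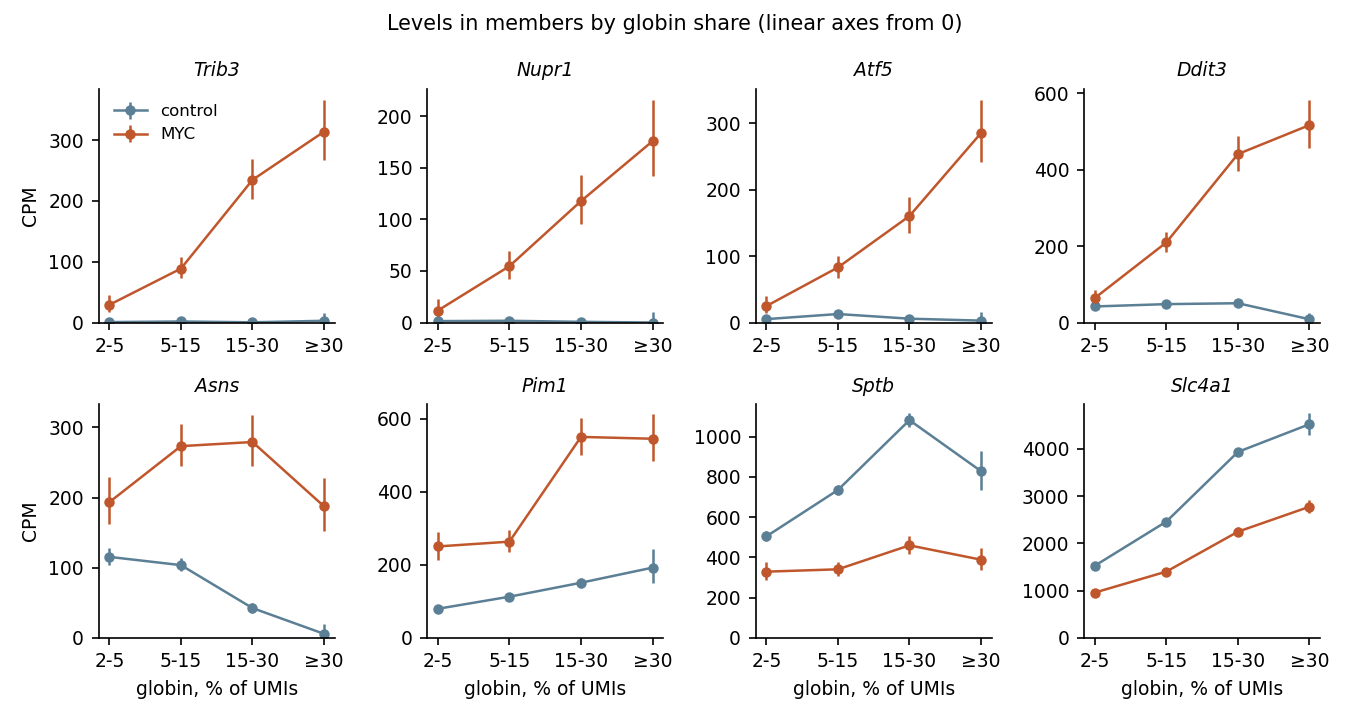
CPM with 95% Poisson intervals in 4 bins of globin share, on linear axes from 0, for 8 genes in members of the control and MYC library. In the MYC library Trib3, Nupr1, Atf5 and Ddit3 are higher in each bin than in the one before; Pim1 is higher in all 4 MYC bins than in the control, and Sptb and Slc4a1 are lower in all 4.

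The list of 21 p53 targets had 11 members with enough UMIs, of which 4 were called higher and 2 lower, beside 13% and 21.4% of all genes. Cdkn1a, the cell cycle inhibitor p21, stood at 1.34 CPM in control and 39.5 CPM in MYC members, a log2 ratio of 4.89 (4.11 to 5.76), and was seen in 1.55% and 17.2% of members. The death genes Bax and Bbc3 (PUMA) stood at 23.5 and 67.4 CPM and at 8.37 and 35.2 CPM. Sesn2, shared with the stress list, was the fourth. Mdm2 and Ccng1, classic p53 targets, were not called, at log2 ratios of -0.40 each, and Trp53inp1 and Sesn1 were called lower, at -1.17 and -1.31, the first of these not with cells weighted alike (-0.57). Gdf15, a secreted factor of stressed cells, had 1 UMI in control and 79 in MYC members, in 50 of 239 of them, a log2 ratio of 8.09 with an interval of 5.57 to 13.41, below the UMI minimum for a call.

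Of 13 measured genes of EPO signalling and survival, 6 were called higher and 3 lower, beside 13% and 21.4% of all genes, so the lower calls were near the background. The median log2 ratio of 0.29 changed sign among the alternatives (-0.20 to 0.74). Erfe (chr1:91366430-91374217, plus strand) encodes erythroferrone, the hormone with which erythroblasts lower hepcidin, and stood at 7.57 CPM in control and 84.2 CPM in MYC members, a log2 ratio of 3.48 (3.12 to 3.84). It was seen in 9.68% and 50.6% of members. Pim1, a survival kinase induced by STAT5, stood at 117 and 380 CPM (1.70), and Cish, a STAT5-induced feedback inhibitor, at 11.4 and 42.0 CPM (1.88).

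Epor stood at 150 and 107 CPM, a log2 ratio of -0.49 without a call. Jak2 was called lower, at 65.3 and 34.0 CPM (-0.94). Bcl2l1 (BCL-XL), the main survival protein of late erythroblasts, was called lower at 34.3 and 21.7 CPM (-0.66), a call lost with globin left out of the total (-0.58), with median-of-ratios scaling (-0.48) and with cells weighted alike (-0.34), and the death gene Bcl2l11 (BIM) was lower too, at 26.7 and 12.9 CPM (-1.06). Socs3, another feedback inhibitor, had 9 and 23 UMIs, too few for a call.

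Ribosomal protein transcripts were higher almost throughout. Of 80 genes measured, 63 were called higher and 0 lower, beside 13% and 21.4% of all genes, and 78 had a ratio above 1; the median log2 ratio was 1.05. Together they made up 97997 CPM of control and 186718 CPM of MYC members. Rps18, of the small subunit, was the furthest, at 869 and 3570 CPM, a log2 ratio of 2.04. Rpl10 stood at 334 and 1210 CPM and Rpl9 at 671 and 2121 CPM. Rpl41 and Rps21 were the 2 below 1, at log2 ratios of -0.12 and -0.06, and both changed sign among the alternatives (-0.28 to 0.08 and -0.22 to 0.15). Many of these genes have near-identical pseudogenes, so single values are less certain than the list.

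The ratio was larger at high globin share, and in each of the 4 bins the ribosomal median (0.70, 1.21, 2.31 and 2.37) exceeded that of the stress list (0.60, 1.03, 1.11 and 1.47). The summed level of these transcripts was 158566 and 244599 CPM at 2 to 5% globin, and 15454 and 71822 CPM at 30% or more. It was lower in each bin than in the one before in both libraries, and at 15 to 30% it reached 34665 CPM (control) and 152145 CPM (MYC).

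Genes commonly induced by MYC were higher in many cases. Of 48 measured, 28 were called higher and 3 lower, beside 13% and 21.4% of all genes, with a median log2 ratio of 0.66. The nucleolar genes Gnl3 and Mrto4 stood at 22.9 and 72.6 CPM (1.66) and at 12.7 and 44.4 CPM (1.81), and the serine and folate enzyme Shmt2 at 29.7 and 103 CPM (1.79). Npm1, nucleophosmin, stood at 256.5 and 413 CPM (0.69), a call lost with the 20 most abundant genes left out of the total (0.52). The 3 lower genes were Odc1 (772 and 448 CPM), the rate-limiting enzyme of polyamine synthesis, the lactate carrier Slc16a1 (284 and 121 CPM) and the hexokinase Hk2, whose call on 113 UMIs was lost under 7 alternatives (-0.32 to -0.95).

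**Figure D4:**
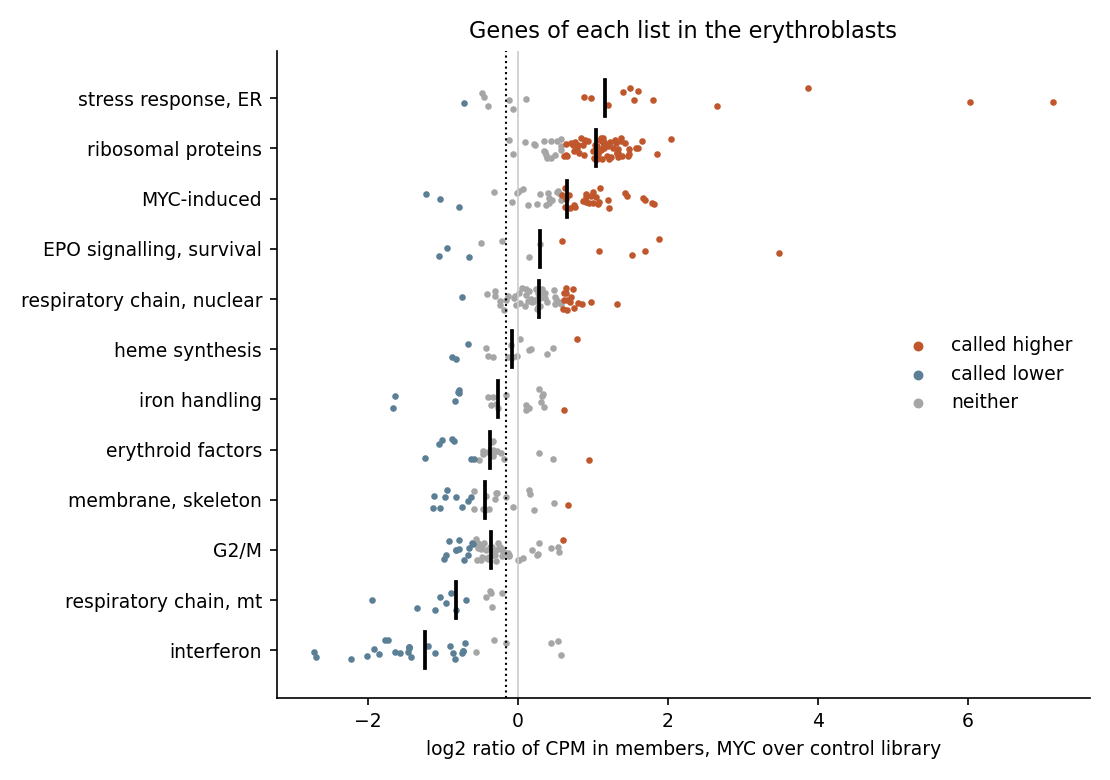
Log2 ratio of CPM (MYC over control library) for each gene with at least 100 UMIs in members, by list; points are genes, coloured by call, black bars are list medians and the dotted line is the median of all genes at -0.16. The stress list has a median of 1.16 with Trib3 at 7.13, and the interferon list has a median of -1.24; the mitochondrially encoded genes are limited by the rule.

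Interferon response genes were lower. Of 30 measured, 0 were called higher and 24 lower, against backgrounds of 13% and 21.4%, and the median log2 ratio was -1.24. Rsad2 (viperin), the most abundant of the strongly lower ones, stood at 269 CPM in control and 57.3 CPM in MYC members (-2.23). Oasl2 and Xaf1 stood at 14.2 and 2.14 CPM and at 19.9 and 3.06 CPM. The signal factors Irf7 and Irf9 had log2 ratios of -1.45 and -1.10. Isg15 was lower without a call (-0.55), and Ifitm3 stood at 155 and 211 CPM (0.44). Rsad2 was seen in 61.5% of control and 25.1% of MYC members, and the richest control member held 2.15% of its UMIs. Interferon also drives the Cre of both genotypes. Whether the libraries differed in exposure to interferon was not tested.

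The red cell membrane and its skeleton were lower in part. Of 25 measured genes, 9 were called lower and 1 higher, beside 21.4% and 13% of all genes, with a median of -0.44 beside -0.16. Sptb, the beta spectrin chain of the skeleton, stood at 774 and 377 CPM (-1.04). Dmtn, an actin-bundling protein of the skeleton, stood at 455 and 233 CPM (-0.97), the water channel Aqp1 at 766 and 398 CPM (-0.95) and the anchor protein Epb42 at 331 and 186 CPM (-0.83). Ank1 and Slc4a1, which tie the skeleton to the membrane, were called lower at -0.66 and -0.62, but both calls were lost with median-of-ratios scaling, at -0.49 and -0.45, and with cells weighted alike, at -0.47 and -0.46, and that of Slc4a1 also with globin left out of the total, at -0.55. Icam4 (0.48) and Tspo2 (0.15, or -0.06 to 0.32 over the alternatives) were not called. Car1, carbonic anhydrase, was the gene called higher, at 379 and 599.7 CPM (0.66), a call lost with the 20 most abundant genes left out of the total (0.50) and with cells weighted alike (0.50).

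Sptb was lower within every globin bin. It stood at 504 and 329 CPM at 2 to 5% globin, 735 and 341 at 5 to 15%, 1082 and 460 at 15 to 30%, and 828 and 388 CPM at 30% or more. Each of the 4 levels in MYC members was below the lowest of the control levels.

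Heme synthesis genes lay close to all genes as a list, with 1 of 16 genes called higher and 3 lower, beside 13% and 21.4%, and a median of -0.08 beside -0.16. Its early and middle enzymes Alad and Urod had log2 ratios of -0.14 and 0.18. Alas2, the erythroid rate-limiting enzyme, stood at 742 and 551 CPM (-0.43), without a call. The 3 called lower were the last enzyme and a pair of carriers. Fech, which inserts iron into the ring, stood at 839 and 528 CPM (-0.67, a call lost with median-of-ratios scaling at -0.50 and with cells weighted alike at -0.52), and the mitochondrial transporters Abcb10 and Abcb6 at 546 and 307 CPM (-0.83) and at 94.3 and 51.1 CPM (-0.88). Blvrb, a flavin and biliverdin reductase, was called higher, at 1123 and 1946 CPM (0.79).

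Genes of iron handling were called lower about as often as all genes, 6 of 21 beside 21.4%, and 1 was called higher, beside 13% of all genes. The transferrin receptor Tfrc stood at 1108 and 1351 CPM (0.28) and the ferritin chains Fth1 and Ftl1 had log2 ratios of 0.14 and 0.31, all without a call. Steap3, the endosomal ferrireductase, was 70.3 and 22.7 CPM (-1.63), the endosomal carrier Slc11a2 71.4 and 41.0 CPM (-0.80), and the mitochondrial importer Slc25a37 (mitoferrin 1) 1414 and 820 CPM (-0.79). The iron exporter Slc40a1 (ferroportin) stood at 62.1 and 19.6 CPM (-1.66). It is also a macrophage gene, while the macrophage genes C1qa and C1qb had 18 and 36 UMIs and 11 and 43 UMIs.

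Among 22 erythroid transcription factors and cofactors, 7 were called lower and 1 higher, beside 21.4% and 13% of all genes, with a median of -0.37 beside -0.16. Zbtb7a, Nfix, Foxo3 and Ldb1 had log2 ratios of -1.06, -1.02, -0.88 and -0.86. Gata1 and Klf1 stood at 130 and 98.3 CPM (-0.40) and at 457 and 319 CPM (-0.52), without a call. Bcl11a, a repressor of fetal globin, was the gene called higher, at 45.4 and 87.9 CPM (0.95). Zbtb7a represses the same globin genes and was lower. Myb, a factor of younger progenitors, was called lower at 18.0 and 7.66 CPM (-1.23); the direction of Myb turned (0.12) when the barcodes with the highest doublet scores were left out, and 36 of its 202 control UMIs came from 1 barcode.

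Of 43 S phase genes, 8 were called lower and 0 higher, and of 52 G2 and M genes, 12 were lower and 1 higher. Lower calls were thus about as frequent as among all genes (21.4%), and higher calls were rarer than among all genes (13%). By globin share the S phase median was -0.33 at 2 to 5%, -0.21 at 5 to 15%, 0.34 at 15 to 30% and 1.38 at 30% or more, so its direction differed between poor and rich members. The G2 and M medians were -0.53, -0.34, -0.37 and 0.20. Mki67 stood at 4410 and 2272 CPM (-0.96), and Rrm1, of ribonucleotide reductase, at 620 and 372 CPM (-0.74), a call lost with median-of-ratios scaling (-0.56) and with the globin bins weighted alike (-0.50). Birc5 (survivin) was the gene called higher, at 561 and 854 CPM (0.61), a call lost with the 20 most abundant genes left out of the total (0.44) and with cells weighted alike (0.57). Among 17 regulators of G1, 3 were called higher and 4 lower, both near the background of 13% and 21.4%. The G1 cyclin Ccnd2 was higher at 10.6 and 34.3 CPM (1.69, or 0.85 to 2.57 over the alternatives), with 31 of its 112 MYC UMIs in 1 barcode, while Ccnd3, the main D cyclin of erythroblasts, stood at 515 and 394 CPM (-0.39).

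The rule limits mitochondrial UMIs, so levels of mitochondrially encoded genes are a description: the median of 13 was -0.83, and mt-Co1 stood at 7182 and 4042 CPM. Of 58 nuclear genes of the respiratory chain, 15 were called higher and 1 lower, beside 13% and 21.4% of all genes, with a median of 0.28; Atp5g1, a subunit of the ATP synthase ring, was the furthest at 111 and 278 CPM (1.32). Among 24 antioxidant genes, 8 were called higher and 4 lower, beside the same shares, so the lower calls were no more frequent than among all genes. The higher ones included Txn1 (243 and 453 CPM) and Prdx1 (86.9 and 149 CPM), and the lower ones Gclc (297 and 140 CPM), which makes glutathione's precursor, Sod1 (378 and 193 CPM) and Nqo1.

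Glycolysis genes were called 4 higher and 4 lower of 21, genes of earlier progenitors 1 and 3 of 9, genes known to respond to tissue dissociation 1 and 0 of 12, and MYC's partner factors 0 and 2 of 8, all beside 13% higher and 21.4% lower among all genes. Of 21 late maturation genes, 1 was called higher and 5 lower, the latter near the background. Trim58 and Ypel4 had log2 ratios of -1.38 and -1.05. Of 18 genes of nuclear condensation, 5 were called lower, also near the background, among them the lamin B receptor Lbr (839 and 486 CPM) and the DNase Dnase2a, and 1 higher, the linker histone H1f0 (0.72), which did not reach the call with the 20 most abundant genes left out of the total (0.55) or with cells weighted alike (0.33).

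Other genes with the highest ratios, among those called and averaging 50 CPM or more, came from several pathways. Fabp5, a fatty acid carrier, stood at 8.20 and 115 CPM (3.81), and Eif4ebp1, an ATF4-responsive brake on cap-dependent translation, at 20.7 and 130 CPM (2.65). The metallothionein Mt1 had a log2 ratio of 2.44, the histone gene Hist1h2bn 2.43, the transcription factor Cebpb 2.12 and the G protein subunit Gng5 2.06. Plek2 (pleckstrin 2), which acts on actin in erythroblasts, stood at 28.6 and 118 CPM (2.04). Krtcap2, of the oligosaccharide transferase, closed the list at 1.87. For Fabp5 the level in all other passing barcodes was 45.1 and 85.6 CPM, so that the MYC level in members was not far above that of other marrow cells.

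At the lower end stood Gm15564, an antisense annotation, at 259 and 50.5 CPM (-2.36). Whether its reads come from this gene was not tested. Rsad2 and its genomic neighbour Cmpk2 followed, the latter at 95.9 and 21.7 CPM (-2.14), with Rnf213, another interferon-responsive gene, at -1.63. Fn3krp, a protein deglycating kinase, Endod1 and the elongation factor Ell2 had log2 ratios of -1.64, -1.61 and -1.54. Mfhas1, Ccdc6 and Tapbp (tapasin, of antigen presentation) followed at -1.52, -1.44 and -1.42. Ache, acetylcholinesterase of the red cell membrane, stood at 76.7 and 29.1 CPM (-1.40) and Aldh1a1, a retinaldehyde dehydrogenase, at 157 and 61.6 CPM (-1.35).

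The neighbouring stages were compared too, but their make-up differed between the libraries. Median globin was 0.21% (control) and 0.027% (MYC) in earlier cells and 40.6% and 24.8% in later erythroblasts. Basophil and mast cell markers summed to 64.5 and 608 CPM in earlier cells and 453 and 45.0 CPM in later erythroblasts. In the latter, macrophage markers summed to 257 and 1124 CPM, and B and plasma cell markers to 2935 and 389 CPM. The part of this in the stage ratios was not tested. For Trib3 the log2 ratio was 6.27 (4.35 to 9.35) in earlier cells, 7.13 in members, 6.47 (4.88 to 8.78) in later erythroblasts and 2.92 (2.52 to 3.34) in all other passing barcodes. Its level in the MYC library was 16.1 CPM in earlier cells, 150 in members, 151 in later erythroblasts and 4.23 in the others. For Ddit3 the ratios were 1.05, 2.65, 4.60 and 0.04 in the same order, and for Atf5 1.42, 3.86, 7.54 and 1.47. The intervals of Ddit3 in members and in the other barcodes, 2.49 to 2.81 and -0.05 to 0.14, did not overlap; whether stages differ was not tested beyond such intervals.

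The Pim1 ratio was larger in members than in the other stages, although its level was highest in later erythroblasts. The Pim1 ratio was 0.48 in earlier cells, 1.70 in members, 0.02 in later erythroblasts and 0.22 in the other barcodes, and later erythroblasts stood at 691 and 701 CPM, above the 380 CPM of MYC members. Erfe was 84.2 CPM in MYC members, against 5.15 CPM in earlier cells and 3.46 CPM in later erythroblasts of that library. The Erfe levels of those 2 stages rest on 17 and 2 UMIs, and in the control on 13 and 1; its log2 ratio was 1.93 (0.80 to 3.09) in earlier cells and 1.94 (1.41 to 2.50) in the other barcodes, and in later erythroblasts the interval included 0. The Bcl11a ratio was 0.95 in members and -0.27 in earlier cells, with -0.93 in the other barcodes, and in later erythroblasts its interval, -0.52 to 1.18, included 0.

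The ribosomal difference was present in every stage. The ribosomal median log2 ratio was 0.58 in earlier cells, 1.05 in members, 2.23 in later erythroblasts and 0.68 in the other barcodes. The interferon median was -0.57, -1.24, -1.01 and -0.81, but the summed level of those genes had log2 ratios of -0.05 (-0.11 to 0.01) in earlier cells, -0.79 in members, -1.29 in later erythroblasts and -0.15 in the others. The medians of all genes were -0.21, -0.16, 0.60 and -0.17, so values of later erythroblasts stand on a raised baseline. Sptb was lower in every stage, with ratios of -1.77, -1.04, -1.19 and -1.84.

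**Figure D5:**
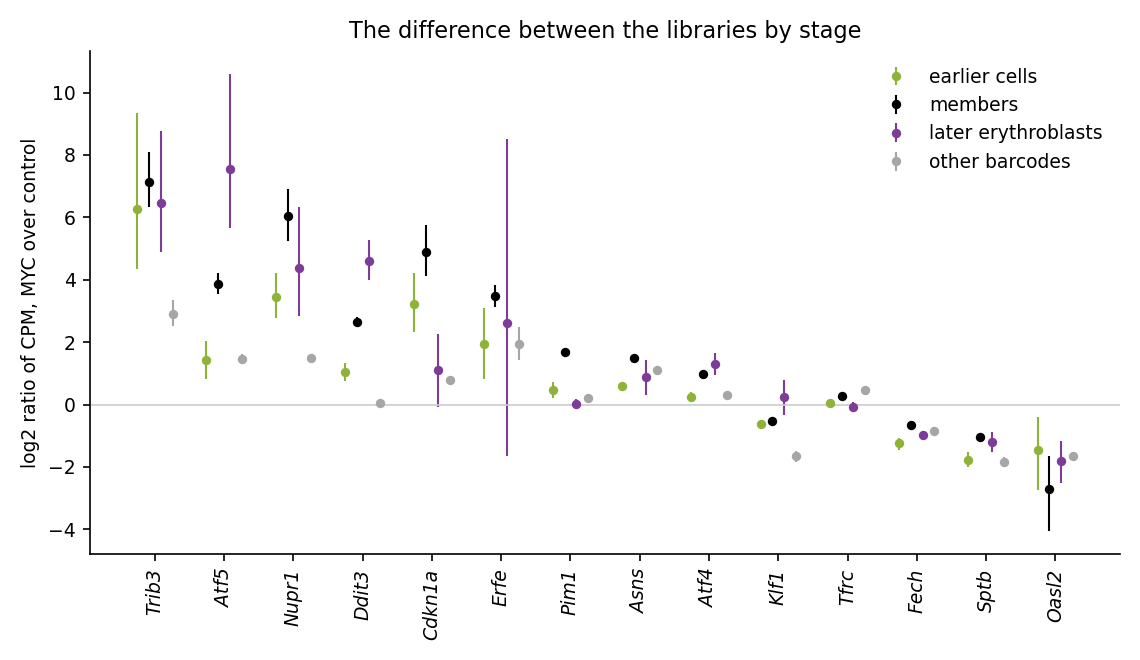
Log2 ratio of CPM (MYC over control library) with 95% counting intervals for 14 genes in earlier cells, members, later erythroblasts and all other passing barcodes. Trib3 is above 6 in the 3 red cell stages and at 2.92 in the other barcodes, while Sptb is below -1 in all of them.

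The list medians were of similar size in members with little neutrophil RNA. In the 699 control and 185 MYC members with under 1% S100a8 and S100a9 and at least 1 Klf1 UMI, a choice made after seeing the data, the medians were 1.19 for the stress list, 1.12 for ribosomal proteins, -1.14 for interferon genes and -0.50 for the membrane list.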

How the data were processed

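The deposited matrices held UMI counts per gene and barcode, which the authors made by running Cell Ranger (6.0.0, per the file headers); the submitters' processing notes name Cell Ranger 6.0, Seurat and GRCm38/mm10. The kit was Chromium Single Cell 3' v2. No further processing by the authors is given in the sources used here. The matrices gave 31569 barcodes and 32286 features, of which 32246 symbols remained after features with 1 symbol were summed. Counts of members were summed per library and divided by their total (CPM). Ratios have exact conditional binomial intervals, levels exact Poisson, shares Clopper-Pearson and differences of shares Newcombe intervals (95%); log2 ratios of genes use no pseudocount, list medians 1 CPM. With 1 library per group edgeR and other tests across samples were not possible. The call procedure was tested on simulated data. Members and lists were chosen with earlier results of these data known. Named genes are the 12 largest and 12 smallest ratios among called genes averaging 50 CPM or more (359 higher and 414 lower candidates), leaving out the rule's genes, S100a8, S100a9, mitochondrial, sex-linked, immunoglobulin and T-cell receptor genes and other cell types' markers. Members of the lists, the transgene, Myc and sex-linked genes were named whatever their values. Scrublet (scanpy 1.11.5) marked 670 control and 0 MYC barcodes, so it did not work in the MYC library, and doublets were left in. The genes Ahsp, Mx1 and Mx2 were not analysed here, and results for some other listed genes are not reported here. Versions were Python 3.11.15, numpy 2.4.6, pandas 2.3.3, scipy 1.17.1 and matplotlib 3.10.9.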

Additional observations from a re-analysis of the deposited data

How the results depend on the processing

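Over 14 alternatives, the log2 ratios of the 133 genes followed gave 1862 values, of which 1795 kept their side of the call, 42 lost the call, 24 gained it and 1, of a called gene, reversed. That was Myb, at 0.12 without the 8% of barcodes with the highest Scrublet scores. Of the genes without a call, 9 with ratios near 0, such as Alad, Pdia6, Ppp1r15a, Fth1 and Xbp1, changed sign in some alternative. The Myb alternative and the one with under 1% S100a8 and S100a9 and at least 1 Klf1 UMI were chosen after seeing the data. Genes that lost the call included Pcna (6 alternatives), Tal1 and Tfr2, and Psat1 where fewer members left it under the UMI minimum although its ratio was larger (2.29 and 2.0). Genes that gained it included Epor, Alas2, Klf1 and Isg15 with the 20 most abundant genes left out (-0.65, -0.59, -0.68 and -0.71). The cause was not tested in any of these except Psat1.

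The share difference was -2.96 points with at least 5% globin and -4.32 with at least 3000 UMIs. Genes called higher numbered 559 with the 20 most abundant genes left out and 462 at 400 UMIs per gene, where fewer genes were tested. Genes called lower numbered 853 with median-of-ratios scaling and 770 at 400 UMIs. The median of all genes was -0.13 with either doublet choice, -0.094 without globin, -0.00075 with median-of-ratios scaling, -0.33 without the 20 most abundant genes, -0.052 with cells weighted alike, -0.043 with globin bins weighted alike, -0.13 and -0.19 at 20 and 400 UMIs, and -0.14 with a pseudocount of 5 CPM. The membrane median was -0.27 with median-of-ratios scaling; without the 20 most abundant genes the MYC-induced median was 0.50 and the interferon median -1.43. The ribosomal median was 1.30 with at least 5% globin, 1.14 under 5% mitochondrial UMIs, 1.17 without the highest Scrublet scores, 1.22 with median-of-ratios scaling, 1.15 with cells weighted alike and 1.25 with bins weighted alike. The medians for EPO signalling, heme synthesis, late maturation, antioxidant, p53 and S phase genes changed sign among alternatives. So did those for glycolysis, dissociation, earlier progenitor and MYC partner genes. The medians for stress (0.48 to 1.33), ribosomal, MYC-induced, interferon, membrane, erythroid factor, iron, G2 and M and nuclear respiratory genes did not. No paired analysis was possible because each group holds 1 library, and for the same reason no library could be left out. Depth limits genes with few UMIs, such as Chac1, Gdf15 and Socs3, to wide intervals.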
